A study of Mus musculus with 76 samples.

Results

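In wild type mouse diencephalon, the starts of 501 of 21770 protein-coding genes carried H3K4me3 and H3K27me3 peaks at E11.5 (embryonic day) and were without an H3K27me3 peak in most lists at E17.5. A gene start was counted when a peak of the list reached to within 2 kb of it. The 501 had a peak of both marks in both E11.5 replicates, an H3K4me3 peak in all 3 E17.5 replicates, and an H3K27me3 peak in at most 1 of the 3 E17.5 replicates. Of the 3938 gene starts that met the other conditions, 267 had no H3K27me3 peak in any E17.5 list, 234 had it in 1 list, 185 in 2 lists and 3252 in all 3. The last group is called bivalent at both stages here. The H3K4me3 and H3K27me3 peaks of the wild type lists chose the 501 promoters, so their values in those lists are given as a description with no test. H3K27ac peaks, RNA and the lists of the humanized line were not used in the choice, although every promoter was chosen to keep H3K4me3.

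H3K27me3 is placed by Polycomb repressive complex PRC2, is bound by PRC1, and covers the promoters of developmental genes that are kept silent. H3K4me3 is placed by trithorax-type methyltransferases at promoters where transcription can start, and a promoter that holds both marks is called bivalent. H3K27ac sits on the same lysine as H3K27me3, so a single histone tail can carry only 1 of them, and it accompanies active promoters and enhancers. In a dissected tissue, marks found together at a promoter may lie in different cells, which these lists cannot tell apart.

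The study replaced the mouse counterpart of a human enhancer called hs754 with the human sequence in the C57BL/6J strain. It profiled the embryonic diencephalon, the part of the forebrain that forms the thalamus and hypothalamus, at E11.5 and E17.5. Both the wild type and the humanized embryos came from homozygous crosses. A replicate was a pool of litter mates, 6 of them at the earlier stage and 3 at the later. Chromatin was immunoprecipitated from each genotype in 2 replicates at the earlier stage and 3 at the later, and RNA was sequenced from 4 replicates per genotype at each stage. The lot of H3K27ac antibody also bound an acetylated lysine of histone H2B on peptide arrays, so the H3K27ac peaks may include that mark. The RNA libraries held between 16414369 and 24272569 counts on genes. The sex of the pooled embryos is not given in the sources used here. Whether RNA and chromatin came from the same pools is not given either.

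Some libraries stood apart from their group. Wild type E17.5 RNA replicate 1 was the extreme value in 29 of the 39 cases in which 1 library lay far from the others, out of 224 groups of 4 examined, where chance would give about 11.2. Gapdh, a glycolysis gene used as a reference, stood at 1343 CPM, that is, as counts scaled to the TMM-adjusted library size, in that replicate and at 447.5, 554.5 and 574.8 in the others. Red cell genes summed to 1068 CPM there, against 294.8, 449.2 and 246.7. The share of reads assigned to no gene, unmapped reads included, was 48.1% there and 55.2, 52.1 and 52.6% in the others. Counts of members called in wild type RNA are given without this library too where it moved them by more than 1.5 times, and for all members together.

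The H3K27me3 lists stood apart in how far they covered chromosome X. In wild type, the share of H3K27me3 peaks on chromosome X was 24.2 and 19.3% at E11.5, then 0.648, 0.623 and 21.2% at E17.5. In the humanized line it was 29.5 and 1.39% at E11.5, then 15.1, 22.5 and 0.677% at E17.5. Both wild type E11.5 lists were therefore high, 2 of the 3 wild type E17.5 lists were low, and the humanized lists split at both stages. H3K27ac lists held 1.59 to 2.13% of their peaks on this chromosome and H3K4me3 lists 2.95 to 3.22%. Several results are also given without chromosome X, a division chosen after seeing the data.

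The tissue was checked against marker lists in wild type RNA. Of 12 diencephalon genes 11 were tested, 2 rose and 4 fell by E17.5, and they summed to 2129, 1570, 1866 and 1583 CPM at E11.5 against 1943, 1771, 1688 and 1590 at E17.5, with Tcf7l2 the most abundant and Rax under 1 CPM. Of 10 telencephalon and hindbrain genes 6 were tested, 2 rose and 2 fell, and the sums were 63.0, 55.5, 49.6 and 54.75 CPM at E11.5, then 96.5, 52.6, 51.6 and 55.1 at E17.5. In these 2 lists the regional genes of the diencephalon were the abundant ones, and the Hox genes of the hindbrain lay near 0. Emx2 led the second list at E11.5 and Tbr1 at E17.5.

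Neurons and progenitors changed places between the stages. Of 10 neuron genes 8 rose and none fell, with sums of 2493, 1952, 2629 and 2179 CPM at E11.5 against 7525, 6950, 6141 and 7059 at E17.5, led by Tubb3 at E11.5 and Map2 at E17.5. Of 10 progenitor genes 9 fell and 1 rose, with sums of 5042, 4940, 5501 and 5102 CPM at E11.5, then 1088, 1056, 1249 and 1304 at E17.5, led by Nes at E11.5 and Fabp7 at E17.5. The groups of libraries did not overlap for either list. In bulk tissue, fewer cells of a type and less RNA per cell cannot be told apart, and the part of either shift in the results at the 501 promoters was not tested. Syn1 is on the neuron list and Slc1a2 on the astrocyte list, and both are among the 501.

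Glial lists were higher at E17.5. Of 10 astrocyte genes 7 rose and 1 fell, with sums of 627.6, 534.7, 653.8 and 636.7 CPM at E11.5 against 993, 1017, 906.4 and 1071 at E17.5, led by Slc1a2, while Aqp4, Gfap and S100b stayed under 1 CPM at E11.5. Of 10 oligodendrocyte genes 9 rose, with sums of 154.9, 183.1, 138.2 and 161.5 CPM at E11.5, then 437.5, 313.5, 296.5 and 333.6 at E17.5, led by Pdgfra, with Sox10 under 1 CPM at E11.5. Of 8 choroid plexus and ependyma genes 5 rose, with sums of 28.5, 23.5, 19.6 and 24.25 CPM at E11.5 against 286.2, 303.6, 166.7 and 345.6 at E17.5, led by Clic6 at E11.5 and Ttr at E17.5. In each of these lists every E17.5 library lay above every E11.5 library.

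Lists of blood, vessel and border cells moved less evenly. Of 10 microglia genes 2 rose and 1 fell, with sums of 70.9, 84.95, 65.35 and 70.7 CPM at E11.5, then 133.2, 66.4, 72.6 and 76.0 at E17.5, led by Csf1r at E11.5, with Trem2 under 1 CPM. Of 10 endothelial genes 3 rose and 1 fell, with sums of 335, 384.6, 332.8 and 366.1 CPM at E11.5 against 545.9, 366.9, 307.3 and 353 at E17.5, led by Kdr. Of 8 mural cell genes 4 rose and 2 fell, with sums of 306, 378.2, 303.1 and 354.2 CPM at E11.5, then 366.9, 345.3, 313.2 and 331.9 at E17.5, led by Notch3 at E11.5 and Rgs5 at E17.5. In these 3 lists the stages overlapped. Of 8 red cell genes 1 rose and 3 fell, with sums of 2200, 2832, 1347 and 1817 CPM at E11.5, led by Hbb-y, and the E17.5 sums given above, led by Hbb-bs, with Hbb-y and Hba-x under 1 CPM. Of 10 genes of meninges and mesenchyme 3 rose and 7 fell, with sums of 1655, 1978, 1514 and 1797 CPM at E11.5 against 884.4, 612, 575.3 and 570.5 at E17.5, led by Col3a1. For red cells and meninges every E17.5 library lay below every E11.5 library. Of 9 pituitary genes only Pomc was tested, and it rose, with list sums of 1.19, 0.946, 1.285 and 1.03 CPM at E11.5, then 4.26, 2.56, 6.20 and 3.01 at E17.5. Of 6 epithelial genes 4 were tested and fell, with sums of 29.2, 33.5, 23.9 and 29.2 CPM at E11.5 against 20.4, 13.2, 13.4 and 11.2 at E17.5, led by Cdh1, with Krt5 and Krt14 under 1 CPM. The part of the glial, blood, vessel and border lists in the results below was not tested either.

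At E11.5 the H3K27me3 peaks of the 501 promoters were weaker and shorter than those of promoters that kept the mark. The median fold enrichment, averaged over both wild type E11.5 lists, was 3.17 for the 501 (range 2.54 to 14.5), 3.53 for promoters with the mark in 2 of 3 E17.5 lists and 6.01 for those bivalent at both stages. The peaks covered a median of 1263.5 bp of the window in the 501 (31.6%) and 2962.8 bp in promoters bivalent at both stages (74.1%). A peak lay over the gene start itself in both lists for 140 of the 501 (27.9%) and in neither for 275, against 2259 of 3252 (69.5%) in both for promoters bivalent at both stages. By chromosome, H3K27me3 lay over the start in both lists for 107 of 435 autosomal members (24.6%) and 33 of 66 on chromosome X (50%). H3K4me3 lay over the gene start in both lists for 451 of the 501.

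The name of the group as promoters that lost H3K27me3 therefore rests mostly on weak peaks. A −log10 q of 5 or more in both E11.5 H3K27me3 lists was reached at 83 of the 501 (16.6%), at 59 of the 185 with the mark in 2 of 3 E17.5 lists (31.9%), and at 2378 of the 3252 bivalent at both stages (73.1%). When peaks of every mark had to reach that value, 550 promoters met the conditions, and only 82 of the 501 were among them. With equally long lists per mark, 810 met them, among them 456 of the 501. Windows of 1 kb and 5 kb gave 584 and 470 promoters, sharing 398 and 395 with the 501. A missing peak says that the caller listed none within the window and puts no number on the level of the mark there. When a wild type E17.5 H3K27me3 list was left out, the mark counted as lost only with a peak in 0 of the 2 lists left, so the condition became stricter together with the missing list, and without replicate 2 this gave 289 promoters. With a peak allowed in 1 of the 2 lists left, a condition chosen after seeing the data, it gave 616, and 675 and 582 without replicates 1 and 3. Leaving out E11.5 H3K27me3 replicate 2, so that 1 list decided, gave 821.

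The E17.5 lists differed in length, and the 234 promoters with the mark in 1 of 3 lists were spread unevenly over them. The wild type E17.5 H3K27me3 lists held 43700, 27452 and 33223 peaks, and the E11.5 lists held 19166 and 13850. Replicate 1, the longest list, was the only one with a peak at 140 of the 234, replicate 2 at 22 and replicate 3 at 72. Of the 140, 1 was on chromosome X, whereas of the 72 in replicate 3, 61 were. The peaks behind those 61 were broad domains with a median width of 20269 bp, against 334 bp for the 11 autosomal peaks of that replicate. No order of the lists by depth can be given, since the read depth of the immunoprecipitated libraries is not given in the sources used here.

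The strongest E11.5 domains just inside the threshold belonged to Pnma8b, Fbxl15 and Pcdh17. Pnma8b, a gene of the paraneoplastic antigen family, had H3K27me3 fold enrichments of 15.8 and 13.3 at E11.5, then of 2.28 in replicate 1 alone at E17.5. Fbxl15, which encodes an F-box protein, had 14.6 and 14.4 at E11.5 and 6.37 in replicate 1 alone. Pcdh17, a protocadherin, had 12.3 and 11.3 at E11.5 and 2.84 in replicate 1 alone. In all 3 the remaining E17.5 peak was weaker than either E11.5 peak. In RNA, Pnma8b rose by 2.79 on the log2 scale and Pcdh17 by 4.16, while Fbxl15, whose stages overlapped, was not called at 0.33 (adjusted p = 0.5, edgeR quasi-likelihood test, Benjamini-Hochberg). Without wild type E17.5 RNA replicate 1, Fbxl15 stood at −0.19.

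Just outside the threshold, with the mark in 2 of 3 E17.5 lists, the strongest were Dctn1, Crb3 and Gfod1. Dctn1, the large subunit of dynactin, had fold enrichments of 20.65 and 18.3 at E11.5 and of 14.9 and 13.15 in E17.5 replicates 1 and 3. Its E17.5 peaks were strong although they reached only 221 and 35 bp into the window. Crb3, a polarity protein of epithelia, had 15.4 and 13.05 at E11.5, then 10.3 and 8.54 in 2 lists at E17.5, and its RNA was too low to test. Gfod1 had 10.4 and 8.72 at E11.5, then 3.85 and 2.96 in 2 lists at E17.5, and its RNA rose by 2.06 on the log2 scale. Among all 185 such promoters, 121 rose in RNA and 13 fell, or 25 without wild type E17.5 RNA replicate 1, where Dctn1 stood at −0.12 after 0.33 with it, not called in either case.

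Members lay on every chromosome but Y, where 0 of 154 gene starts qualified. Chromosome X held 66 of the 501, which was 6.72% of its 982 gene starts, and the other chromosomes except Y held between 1.35 and 3.68% of theirs. Of the autosomes, chromosome 2 held the most at 47, followed by chromosomes 7 and 10 with 37 each. Of the 66 on chromosome X, 62 had the mark in 1 of 3 E17.5 lists. The other 4, named after their values were seen, were Mbtps2, Pcsk1n, Syn1 and Tmem255a.

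H3K27me3 spreads over the inactive X chromosome of female cells, which Xist RNA coats, and the pools differed in Xist. Xist stood at 238.3, 0.683, 738.4 and 220.1 CPM in the wild type E11.5 RNA libraries and at 446, 602.3, 1702 and 1322 at E17.5. Ddx3y, a gene of the Y chromosome, stood at 10.6, 7.83, 7.66 and 9.51 CPM at E11.5 and at 0, 33.4, 0.0488 and 23.4 at E17.5. Thus 1 E11.5 pool had almost no Xist, and 2 E17.5 pools had almost no Ddx3y. Which RNA pool, if any, matches which chromatin pool is not given, so the sex of the chromatin pools cannot be read from these values, and its part in the peaks on chromosome X was not tested. Both genes were chosen after their values were seen. Leaving chromosome X out left 435 members.

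The humanized line gave H3K27me3 lists that the choice of members had not used. Outside chromosome 13, where the human sequence shifts coordinates, 418 of 488 members had the mark in both humanized E11.5 lists. At E17.5, 329 of the 488 had it in none of the 3 humanized lists, 79 in 1 list, 74 in 2 and 6 in all 3. The mark was lost by the same conditions at 386 of the 418 (92.3%), where the share was 18.2% of 4722 over all gene starts with the mark in both humanized E11.5 lists, and 49 of 3107 (1.58%) for promoters bivalent at both stages in wild type. With 2 lists against 3, Fisher's exact test of a single promoter cannot go below p = 0.1, so the lists were not tested against each other.

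The autosomes and chromosome X differed here. On the autosomes 378 of 402 members (94.0%) lost the mark in the humanized lists. On chromosome X only 16 of 66 members had it in both humanized E11.5 lists, of which 8 lost it (50%), 50 had it in 1 of them, and 55 had it in 2 of 3 at E17.5. Over all 501 members, those on chromosome 13 included, the humanized E11.5 lists held a peak at 484 and 446, of which 66 and 16 were on chromosome X. At E17.5 they held a peak at 109, 106 and 32 of the 501, of which 55, 63 and 0 were on that chromosome. Members on chromosome X thus followed the list rather than the stage.

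Of the 488 members outside chromosome 13, 386 (79.1%) lost the mark in the humanized lists, and on the autosomes 89.6% of 422 did. Only those farthest from the rest are named here, after their values were seen. Mtcl2 and Strn4 had no H3K27me3 peak in either humanized E11.5 list. The 6 members with the mark in all 3 humanized E17.5 lists were Cacnb2, Fbxl15, Gca, Pnma8b, Ptpra and Slc1a2. Cacnb2 encodes a calcium channel beta subunit, Ptpra a receptor tyrosine phosphatase and Slc1a2 the main glutamate transporter of astrocytes. Slc1a2 RNA stood at 273.8, 153.4, 311.7 and 238.5 CPM at E11.5, then 154, 378.3, 317.4 and 381 at E17.5 in wild type. The stages overlapped for Slc1a2, and it was not called. Pnma8b had humanized fold enrichments of 16.5 and 18.8 at E11.5, then 2.84, 2.65 and 2.69 at E17.5, so its E17.5 peaks were present and weak. Fbxl15 kept stronger ones there, at 4.86, 5.25 and 2.81 after 13.4 and 15.0 at E11.5. Pcdh17 had 11.4 and 14.8 at E11.5, then 2.44 and 2.46 in 2 of 3 lists at E17.5.

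H3K27ac was already present at most of the 501 promoters at E11.5 and became stronger and more frequent by E17.5. It was listed at both stages in every wild type list for 387 of the 501 (77.2%). It was gained, with a peak in neither E11.5 list and in all 3 E17.5 lists, at 72 of the 501 (14.4%), against 7.86% of all 21770 gene starts. It was lost at 0 of the 501, against 0.62% of all gene starts. Another 40 had it in some lists, and 2, Atg4a and Gpr143 on chromosome X, named after their values were seen, had it in none. Per list, 413 and 397 members had a peak at E11.5 against 495, 497 and 497 at E17.5. Lists at E17.5 were longer as a whole, with 36150 and 32418 H3K27ac peaks at E11.5, then 62720, 74802 and 77419 at E17.5, and with 2 against 3 lists no promoter was tested.

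As a share of all promoters in a group, the gain was more frequent at promoters that had kept H3K27me3. A promoter with H3K27ac in an E11.5 list could not count as a gain. Of the 501 members, 387 had it at both stages and 2 at neither. H3K27ac was gained at 878 of 3252 promoters bivalent at both stages (27%), where 1013 had it at both stages (31.15%), 792 at neither (24.35%) and 36 lost it. It was gained at 27 of 267 members with H3K27me3 in no E17.5 list (10.1%), at 45 of 234 with it in 1 list (19.2%), and at 34 of 185 promoters with it in 2 lists (18.4%). Among the members, 60 of the 72 were autosomal and 12 on chromosome X. The members differed from the promoters bivalent at both stages more in how many already had H3K27ac at E11.5 than in how many gained it. Set beside promoters with H3K27ac at neither stage, the order turned. Among members 72 gained it and 2 had it at neither, whereas 878 and 792 did among promoters bivalent at both stages. Those with it in some lists are left out of these counts. The count moved with the settings. With a wild type E17.5 H3K27me3 list left out and no peak allowed in the 2 lists left, it was 31 without replicate 2 and 39 without replicate 3, whereas with a peak allowed in 1 of them, chosen after seeing the data, it was 93 and 88. With a −log10 q of at least 5 for every peak it was 228 of 550 (41.5%), where 8.58% of all gene starts gained it. With equally long lists it was 152 of 810 (18.8%), against 5.22%. Both of these settings changed the H3K27ac peaks together with the members, so neither choice can be read alone. For them the share at promoters bivalent at both stages is not given here.

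Peak strength moved the same way. Among members with a peak in the list, the median H3K27ac fold enrichment was 8.65 and 8.59 at E11.5, then 24.2, 25.2 and 28.8 at E17.5. Over all gene starts it was 10.1 and 10.05 at E11.5, then 19.0, 18.6 and 21.2 at E17.5, and at promoters bivalent at both stages 6.58 and 6.57, then 10.2, 9.998 and 10.7. Among promoters with a peak in the list, members thus started below the median of all gene starts and ended above it. The E17.5 lists were longer and held a peak at more promoters. Medians with equally long lists are not given here. H3K4me3, which the choice required, had medians of 40.9 and 42.4 at E11.5, then 55.1, 57.55 and 53.7 at E17.5 at the members, and of 45.0, 45.9, 51.6, 54.7 and 50.5 over all gene starts. CTCF, an insulator protein profiled at E17.5 alone, had a peak in all 3 wild type lists at 324 members (64.7%), against 37.9% of all gene starts and 54.8% of those bivalent at both stages. Among members the share was 69.2% on the autosomes and 34.85% on chromosome X.

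In the humanized lists H3K27ac was gained at 55 of 488 members outside chromosome 13 (11.3%), against 5.28% of gene starts. Of these, 51 were among the 71 that gained it in wild type outside that chromosome. The wild type and humanized lists share no sample.

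The gained promoters with the highest E17.5 H3K27ac belonged to Ctxn2, Plppr4, Cntnap2, Syne1, Ppfia2 and Rnf227, none of which had a peak in either E11.5 list. Ctxn2, of the cortexin family of small membrane proteins, had fold enrichments of 35.6, 43.2 and 35.7 at E17.5. Plppr4, a membrane protein of glutamatergic synapses, had 33.2, 31.8 and 45.9. Cntnap2, a neurexin-related adhesion molecule, had 34.8, 40.7 and 34.2. Syne1, which links the nuclear envelope to the cytoskeleton, Ppfia2, a scaffold of the presynaptic active zone, and Rnf227 had between 24.35 and 38.8 in every list. All 6 were called higher in RNA, and their sizes differed widely.

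Cntnap2 was the smallest of these rises. Its RNA stood at 165.1, 144.4, 132.7 and 126.7 CPM at E11.5 against 229.8, 244.2, 225.1 and 241.6 at E17.5, a rise of 0.72 on the log2 scale with a standard error of 0.16 (adjusted p = 0.0027, edgeR quasi-likelihood test, Benjamini-Hochberg). Every E17.5 library lay above every E11.5 library, yet Cntnap2 RNA was present at E11.5 without an H3K27ac peak within 2 kb of the gene start. Per kb of exon it went from 13.8 to 22.9 CPM. Ppfia2 went from 11.04, 5.52, 15.9 and 9.345 CPM to 93.4, 247.1, 215.2 and 258.1, a rise of 4.28 on the log2 scale. Syne1 rose by 3.48 and Rnf227 by 2.90.

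RNA rose at most of the genes whose promoters these are. In wild type, 328 of the 501 were called higher at E17.5 (65.5%), where 29% of all 18583 genes tested and 32.3% of the 14353 protein-coding genes tested were. Another 45 were called lower (8.98%), where 26.7% of all genes and 25.7% of protein-coding genes were. Calls were made at an adjusted p under 0.05 by the quasi-likelihood test of edgeR, adjusted over all genes tested after Benjamini-Hochberg. The low-count filter kept 486 of the 501, of which 113 were not called, and 15 were not tested, 4 of them with fewer than 10 reads over all wild type libraries. The median log2 change of those tested was 1.32, with quartiles of 0.31 and 2.36, beside −0.01 over all genes tested and 0.07 over protein-coding genes. Among the 550 promoters chosen with a −log10 q of at least 5 for every peak, 432 genes were called higher and 17 lower, with a median of 2.14. In 309 of the 328 every E17.5 library lay above every E11.5 library, and in 36 of the 45 every one lay below. The same share over all called genes is not given here, so this separation cannot be read as particular to the members.

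Sizes ranged widely. Called rises reached at least 1 on the log2 scale at 279 members, at least 2 at 162 and at least 4 at 33. Called falls reached at least 1 in size at 27 members, at least 2 at 5 and at least 4 at 0. Counts over all genes at these steps are not given here. The quartiles of the log2 change were 0.31 and 2.36 in members and −0.55 and 2.32 in promoters bivalent at both stages. The upper quartiles were thus close. On the autosomes 291 members rose and 34 fell, with a median of 1.325, and on chromosome X 37 rose and 11 fell, with a median of 1.275. Without wild type E17.5 RNA replicate 1, 348 members were called higher and 71 lower, with a median of 1.18, and the shares over all genes were 36 and 36.3%. The falls were therefore the count that this library moved most. On the autosomes alone 306 rises and 58 falls were called without it.

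Members also started from a higher RNA level than promoters that kept the mark. The median level per length over members was 3.30 CPM per kb at E11.5 and 7.71 at E17.5, beside 0.801 and 1.59 for genes with promoters bivalent at both stages and 0.930 and 1.32 over all protein-coding gene starts. Genes whose promoters were bivalent at both stages also rose more often than they fell, with 1398 called higher and 642 lower of 3252, 2819 of them tested, and a median log2 change of 0.71. Members with the mark in no E17.5 list rose in 170 and fell in 27 cases, with a median of 1.16. Members with it in 1 list rose in 158 and fell in 18, with a median of 1.38. Without wild type E17.5 RNA replicate 1 the falls were 43 with the mark in none and 28 with it in 1. Promoters with it in 2 lists had a median of 1.65. The medians were higher with the mark in 1 or 2 lists than in none, and the lowest with it in all 3.

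The RNA change differed between the classes of H3K27ac. Of the 72 members that gained H3K27ac, 59 rose, 2 fell and 8 were not tested, and the median log2 change was 2.53. Their median level went from 0.693 to 3.66 CPM per kb. Over all 1711 gene starts that gained H3K27ac, 1025 rose and 129 fell, with a median of 1.79. Of the 387 members with H3K27ac at both stages, 238 rose and 41 fell, with a median of 1.03, whereas over all 9800 such gene starts 2268 rose and 2723 fell, with a median of −0.09. Of the 40 with H3K27ac in some lists, 31 rose and 2 fell, with a median of 2.39. Falls without wild type E17.5 RNA replicate 1 were called at 66 of the 387, at 2 of the 72 and at 218 of the 1711. The 2 gained promoters with falling RNA were Foxo4 at −1.32 and Morc4 at −0.72, both on chromosome X, and the 2 falls in the last class included Mid1. Morc4 and Foxo4 were named after their values were seen. These classes differ in their E11.5 RNA level, and the part of that level in the medians was not tested.

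The largest rise belonged to Plppr4. Its RNA stood at 0.413, 0.105, 0.463 and 0.453 CPM in the wild type E11.5 libraries, 30 reads in all, and at 52.9, 104.7, 83.5 and 100.5 CPM at E17.5. The rise was 7.85 on the log2 scale with a standard error of 0.42 (adjusted p = 4.3e-07, edgeR quasi-likelihood test, Benjamini-Hochberg), and every E17.5 library lay far above every E11.5 library. In the humanized libraries it rose by 8.92. Ctxn2 followed at 7.41 with a standard error of 0.50 (adjusted p = 1.2e-06, edgeR quasi-likelihood test, Benjamini-Hochberg), from 1 read in each of the 4 E11.5 libraries, 0.0516, 0.0525, 0.0514 and 0.0412 CPM, to 4.755, 7.78, 12.01 and 12.65 CPM. All 4 E17.5 libraries were above all E11.5 libraries, but the size of the fold rests on 4 reads. The 250 bases before the Ctxn2 start overlap the noncoding gene Gm14004 on the other strand. Whether Gm14004 reaches the exons of Ctxn2 is not given here, and the counts used do not separate strands. Counted on the strand that holds most reads, Ctxn2 rose by 7.75 (adjusted p = 2.1e-06, edgeR quasi-likelihood test, Benjamini-Hochberg), again with all 4 E17.5 libraries above all E11.5 libraries.

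Slc4a10, a sodium-coupled bicarbonate transporter of neurons, came next and already had H3K27ac at E11.5. Its RNA went from 0.516, 0.420, 0.823 and 0.453 CPM to 28.6, 109.1, 87.7 and 123.6, a rise of 7.29 with a standard error of 0.53 (adjusted p = 2e-06, edgeR quasi-likelihood test, Benjamini-Hochberg). The lowest E17.5 value was that of replicate 1, and the stages were still far apart. H3K27ac at its promoter had fold enrichments of 6.08 and 2.63 at E11.5, then 45.7, 38.3 and 44.7 at E17.5. The mark was thus listed at E11.5 while almost no RNA was counted. In the humanized libraries Slc4a10 rose by 7.85.

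Of the 10 largest rises, 8 gained H3K27ac, and only Slc4a10 and Pak6 did not. Il1rapl1, an adhesion receptor of synapses on chromosome X, rose by 5.82, from 0.464, 0.105, 0.206 and 0.247 CPM to 6.50, 19.1, 13.3 and 20.01. Faim2, an inhibitor of death receptor signalling in neurons, rose by 5.61, from 0.671, 1.16, 0.977 and 1.03 CPM to 92.8, 33.5, 30.5 and 35.4. Pak6, a p21-activated kinase, rose by 5.44, from 5.52, 2.52, 2.31 and 2.43 CPM to 219, 113.1, 115.4 and 114.3. Replicate 1 was the lowest E17.5 library for Il1rapl1 and the highest for Faim2 and Pak6. Csmd3, a large membrane protein with CUB and sushi domains, rose by 5.40, and Aloxe3, a lipoxygenase known from the epidermis, by 5.34. Scn9a, a voltage-gated sodium channel, rose by 5.33 and Kcnh7, a voltage-gated potassium channel, by 5.15. For all 10 the humanized libraries were called higher as well.

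Of the 45 members whose RNA fell, 41 had H3K27ac at both stages, and without wild type E17.5 RNA replicate 1 it was 66 of 71. Phf21b, a PHD finger protein, went from 281.2, 266.4, 215.2 and 239.1 CPM to 28.5, 14.4, 16.3 and 12.01, a change of −3.83 on the log2 scale with a standard error of 0.28 (adjusted p = 1.8e-06, edgeR quasi-likelihood test, Benjamini-Hochberg). All E17.5 libraries lay far below all E11.5 libraries, with replicate 1 the highest of them. Its H3K27ac fold enrichment was 27.1 and 28.8 at E11.5, then 15.99, 16.8 and 19.1 at E17.5, so the peak was present and lower. Loss of the H3K27me3 peak and fall of RNA thus occurred at the same gene.

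Cdk4, a kinase that drives entry into the cell cycle, went from 571.7, 699.8, 502.8 and 555 CPM to 188.9, 69.1, 100.3 and 85.5, a change of −2.42. Mid1, a microtubule-associated ubiquitin ligase on chromosome X, went from 48.7, 49.3, 56.0 and 52.1 CPM to 12.5, 10.8, 8.69 and 8.39, a change of −2.37, and had H3K27ac in no E17.5 list. Rxra, a retinoid X receptor, went from 70.3, 91.0, 65.8 and 73.0 CPM to 32.85, 11.3, 8.83 and 9.60, a change of −2.29. In these 3 genes the stages did not overlap, and replicate 1 was the highest E17.5 library. Klhl35, of the kelch family, changed by −3.10. Gcat, an enzyme of threonine breakdown, changed by −1.97, from 1.755, 2.89, 2.725 and 1.89 CPM to 1.585, 0.160, 0.342 and 0.344, where replicate 1 lay just below the lowest E11.5 library, and by −2.99 without that replicate.

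Some promoters had strong H3K27me3 at E11.5 and no peak in any of the 6 E17.5 lists of both genotypes. Bcr, a regulator of small GTPases, led these with fold enrichments of 9.385 and 6.93 in wild type and 7.23 and 10.2 in the humanized line at E11.5. Its RNA stood at 135.4, 132.9, 109.8 and 122.8 CPM at E11.5, then 255.6, 140.1, 108.6 and 111.3 at E17.5. The stages overlapped, and the change of 0.28 with a standard error of 0.26 was not called (adjusted p = 0.38, edgeR quasi-likelihood test, Benjamini-Hochberg). Without replicate 1 of E17.5 it was −0.064. H3K27ac at the Bcr promoter nevertheless stood at 9.07 and 9.86 at E11.5, then 27.2, 23.9 and 24.5 at E17.5. Bcr was thus transcribed at E11.5 beside its H3K27me3 peak.

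The next in this order were Pcdhgc4, Zdhhc14, Lix1l, Cbarp and Rasip1. Pcdhgc4, a clustered protocadherin, had H3K27me3 at 7.71 and 6.86 at E11.5 and rose by 4.11 in RNA, but it shares exons with the other genes of its cluster, so its counts are uncertain. Zdhhc14, a palmitoyltransferase, had 8.12 and 6.43 and rose by 2.71. Cbarp, which binds calcium channel beta subunits, had 6.94 and 5.74 and rose by 2.28. Of these 5, only Lix1l had a negative change, at −0.56, and it was not called, with 3 of 4 E17.5 libraries below every E11.5 library (adjusted p = 0.053, edgeR quasi-likelihood test, Benjamini-Hochberg). Without E17.5 replicate 1 all 3 libraries left were below, and Lix1l was called at −0.84 (adjusted p = 1.9e-05, edgeR quasi-likelihood test, Benjamini-Hochberg). With every library kept and at least 3 of 4 below, it was also called in a fit of all 16 libraries at −0.55 (adjusted p = 0.010) and with the reverse strand alone at −0.54 (adjusted p = 0.049, both edgeR quasi-likelihood test, Benjamini-Hochberg). Rasip1, a Ras-interacting protein of endothelium, had 6.06 and 6.42 and rose by 0.89 (adjusted p = 0.035, edgeR quasi-likelihood test, Benjamini-Hochberg), with 3 of 4 E17.5 libraries above every E11.5 library, a call that 6 of the alternative settings did not give. These left out E11.5 replicate 1, 3 or 4 (0.79, 0.93 and 0.76) or E17.5 replicate 1 or 3 (0.56 and 0.90), or blocked by replicate (0.82).

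Of the 3938 gene starts with both marks at E11.5 and H3K4me3 at E17.5, the 501 members were 12.7%, and families of genes are set beside that share without a test. Of 112 homeobox genes among the 3938, 0 were members and 112 were bivalent at both stages. Of 54 basic helix-loop-helix genes 2 were members (3.70%), Myc and Mycl, and of 55 forkhead, Sox, Gata and T-box genes 2 were (3.64%), Foxo4 and Sox30, all 4 named after their values were seen. Myc, a growth regulator, went from 11.51, 10.9, 9.92 and 9.43 CPM to 46.5, 26.3, 25.9 and 28.0, a rise of 1.58. Mycl changed by −1.14, Foxo4 fell as given above, and Sox30 was not called at 0.06. In RNA over the whole families, 24 of 110 homeobox genes tested rose and 57 fell (median −1.05), 16 of 61 helix-loop-helix genes rose and 29 fell (median −0.47), and 18 of 70 forkhead to T-box genes rose and 29 fell (median −0.45). The families were defined by gene symbols, held 2883 genes in all, 1199 of them with these marks, and included 109 of the 501 members (9.09% of the 1199), so that most members were in none of them.

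Zinc finger and nuclear receptor genes gave 5 members of 106 (4.72%), of which 3 rose and 1 fell, with a median of 0.91. Zkscan16 gained H3K27ac and rose by 3.28, Klf12 rose by 0.91 and Klf16 was not called at 0.33, or at 0.028 without wild type E17.5 RNA replicate 1, while Rxra fell as given above. With 3 of 4 E17.5 libraries above every E11.5 library, the call of Klf12 (adjusted p = 0.045, edgeR quasi-likelihood test, Benjamini-Hochberg) was missing under 7 alternative settings. These left out E11.5 replicate 1, 2 or 4 (0.95, 0.76 and 0.82) or E17.5 replicate 2, 3 or 4 (0.73, 0.94 and 0.84), or blocked by replicate (0.86). Of the family at large, 214 of 534 genes tested rose and 104 fell, with a median of 0.29.

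Ion channel genes gave 16 members of 119 (13.4%), of which 13 rose and none fell, with a median of 2.52, and 6 gained H3K27ac, and 1 fell without wild type E17.5 RNA replicate 1. Kcnd2, a potassium channel of dendrites, went from 6.35, 2.89, 6.68 and 4.45 CPM to 71.9, 194.8, 158.2 and 184.5, a rise of 4.90. Scn3b, a sodium channel beta subunit, went from 54.8, 37.2, 46.7 and 44.6 CPM to 481.6, 438.5, 404.1 and 455.2, a rise of 3.27. Neither gene showed any overlap between the stages. Hcn3, a pacemaker channel, rose by 1.76, and Lrrc8d, a subunit of volume-regulated anion channels, was not called at 0.02. The sign of Lrrc8d turned, at −0.02, −0.02 and −0.13, when E11.5 replicate 3, E11.5 replicate 4 or E17.5 replicate 1 was left out. Family-wide, 127 of 172 genes tested rose and 10 fell, with a median of 1.94.

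Transmitter receptor genes gave 4 members of 99 (4.04%), of which 3 rose, with a median of 2.695. Gabra2, a GABA receptor subunit, went from 3.56, 1.52, 2.98 and 2.06 CPM to 28.4, 63.9, 65.35 and 90.2, a rise of 4.61, with every E17.5 library above every E11.5 library. Grm3, a metabotropic glutamate receptor, rose by 3.37, Gabbr1, a subunit of the metabotropic GABA receptor, by 2.02, and Npr2, a natriuretic peptide receptor, was not called at −0.40. Without wild type E17.5 replicate 1, Npr2 was called at −0.51 (adjusted p = 0.0023, edgeR quasi-likelihood test, Benjamini-Hochberg), with all 3 E17.5 libraries left below every E11.5 library. With every library kept and at least 3 of 4 of E17.5 below, Npr2 was also called in the fit of 16 libraries at −0.39 (adjusted p = 0.031) and with the reverse strand alone at −0.41 (adjusted p = 0.043, both edgeR quasi-likelihood test, Benjamini-Hochberg). Over the whole family, 105 of 132 genes tested rose and 9 fell, with a median of 3.17. Synaptic vesicle, release and scaffold genes gave 9 members of 72 (12.5%), of which 7 rose and none fell, with a median of 2.18. Syn1, a synaptic vesicle protein on chromosome X, gained H3K27ac and went from 44.7, 41.8, 37.7 and 36.7 CPM to 502.8, 203.3, 195.6 and 220.8, a rise of 2.78. Replicate 1 was more than the rest here too, and all E17.5 libraries were above all E11.5 libraries. Shank1, a postsynaptic scaffold, rose by 2.62 and Cadps, a factor of dense-core vesicle release, by 2.18. Of the family at large, 94 of 130 genes tested rose and 14 fell, with a median of 1.94.

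Adhesion genes gave 13 members of 84 (15.5%), of which 12 rose and none fell, with a median of 3.21. Negr1, an adhesion protein of the immunoglobulin family, went from 18.1, 5.36, 17.7 and 12.4 CPM to 158.3, 499.8, 389.1 and 446.5, a rise of 4.80, with no overlap between the stages. Pcdh19, a protocadherin on chromosome X, rose by 3.32, Cadm4, a synaptic and glial adhesion molecule, by 0.93, and Cntnap2 as given above. The call of Cadm4 was missing, with all 4 E17.5 libraries above the 3 left, without E11.5 replicate 3, at 0.86 (adjusted p = 0.064), or 4, also at 0.86 (adjusted p = 0.072, both edgeR quasi-likelihood test, Benjamini-Hochberg), and its rise was 0.48 without E17.5 replicate 1. Family-wide, 132 of 202 genes tested rose and 24 fell, with a median of 1.495. Extracellular matrix genes gave 7 members of 97 (7.22%), of which 5 rose and none fell, with a median of 2.50. Spock2, a brain proteoglycan, rose by 2.85, Sdc3, a neural syndecan, by 2.77 and Ncan, the proteoglycan neurocan, by 0.94, while Mmp15, a membrane-bound protease, was not called at −0.21. Without wild type E17.5 replicate 1, Mmp15 was called at −0.69 (adjusted p = 0.00038, edgeR quasi-likelihood test, Benjamini-Hochberg), with its 3 other E17.5 libraries all below the E11.5 ones. Over the whole family, 62 of 162 genes tested rose and 47 fell, with a median of 0.22.

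Solute carriers and pumps gave the most members, 23 of 134 (17.2%), of which 20 rose and none fell, with a median of 1.5. Atp1b1, a beta subunit of the sodium pump, rose by 2.68, Slc35f1 by 1.80 and Slc1a4, a carrier of neutral amino acids, by 1.66. Of the family at large, 166 of 353 genes tested rose and 47 fell, with a median of 0.58. Genes of calcium, cyclic nucleotide and G-protein signalling gave 11 members of 94 (11.7%), of which 10 rose and none fell, with a median of 2.46, and 1 fell without wild type E17.5 RNA replicate 1. Gnao1, an abundant G-protein alpha subunit of brain, went from 263.6, 222.9, 215.3 and 217 CPM to 1354, 865.6, 772.8 and 848.2, a rise of 2.05. The stages did not overlap for Gnao1. Gnai1, an inhibitory alpha subunit, also rose by 2.05, Gucy1b1, a subunit of soluble guanylate cyclase that gained H3K27ac, by 2.97, and Camk2n2, an inhibitor of calmodulin kinase, by 2.63. Family-wide, 111 of 167 genes tested rose and 19 fell, with a median of 1.47.

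Axon guidance genes gave 8 members of 52 (15.4%), of which 3 rose and 2 fell, with a median of 0.11. Without wild type E17.5 RNA replicate 1, 3 rose and 4 fell, with a median of −0.25. Plxnc1, a semaphorin receptor, rose by 2.55 and Sema6a, a semaphorin, by 1.06, while Plxnb1, another semaphorin receptor, changed by −1.03 and the ephrin Efna2 by −0.92. The call of Efna2 was missing without E17.5 replicate 2, 3 or 4, at −0.79, −0.80 and −0.82 (adjusted p = 0.0501, 0.054 and 0.052, edgeR quasi-likelihood test, Benjamini-Hochberg), with 2 of the 3 libraries left below every E11.5 library. Signalling ligands and receptors gave 9 members of 134 (6.72%), of which 4 rose and 3 fell, with a median of 0.29. Fgf13, an intracellular channel partner on chromosome X, rose by 2.71, whereas Igfbp4, which binds insulin-like growth factors, changed by −1.32 and Gdf11, a ligand of the TGF-beta family, by −1.13. Gdf11 went from 95.2, 104.8, 95.0 and 102.2 CPM to 56.3, 47.5, 37.8 and 41.2, with no overlap between the stages. Fzd3, a Wnt receptor of axon growth, was not called at −0.03, and its sign turned to positive under 4 alternative settings. Over the whole families, 34 of 76 guidance genes tested rose and 18 fell (median 0.47), and 51 of 151 signalling genes rose and 57 fell (median −0.18). With all libraries, in every family that gave at least 3 members, the direction of most calls among members was also that of the whole family, except for signalling genes.

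The genes of the machinery that places and removes these marks were not among the 501. Of 12 PRC2 genes tested 2 rose and 6 fell, and their sum went from 1784, 1807, 1959 and 1827 CPM to 910.6, 904.3, 960.7 and 987.9, led by Rbbp4. Every E17.5 library lay below every E11.5 library. Ezh2, the main H3K27 methyltransferase, went from 258.6, 213.1, 321 and 270.2 CPM to 35.9, 57.3, 57.2 and 62.05, a change of −2.33. The related Ezh1 rose by 1.26 and the accessory subunit Phf1 by 1.20, both named after their values were seen. Epop changed by −3.13, Rbbp4 by −1.49 and Eed by −1.48. Of 19 PRC1 genes 3 rose and 4 fell, with sums of 1455, 1428, 1505 and 1513 CPM at E11.5 against 1327, 1272, 1175 and 1235 at E17.5, led by Phc2 at E11.5 and Pcgf3 at E17.5. Among these Cbx2, a chromodomain subunit, changed by −3.21 and Phc2 by −1.79. The Cbx2 and Epop promoters were themselves bivalent at both stages, and that of Phc2 had H3K27me3 in 2 of 3 E17.5 lists.

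Of the 2 H3K27 demethylases, Kdm6a was not called and Kdm6b changed by −0.94, named after its value was seen, with sums of 210.9, 199.2, 202.6 and 213.4 CPM at E11.5, then 163, 137.7, 145.9 and 128.9 at E17.5. Of 11 genes of the H3K4 methyltransferase complexes none rose and 8 fell, with sums of 1437, 1526, 1469 and 1482 CPM at E11.5 against 1209, 1218, 971.6 and 1051 at E17.5. The acetyltransferases Crebbp and Ep300 were not called, with sums of 346.9, 304.9, 394.2 and 399.8 CPM at E11.5, then 222, 337.7, 286.2 and 337.9 at E17.5. The stages overlapped for the acetyltransferases and not for the other lists. The summed PRC2 RNA was thus lower at E17.5, while the E17.5 lists as a whole held more H3K27me3 peaks than those of E11.5. In that sum Rbbp4 alone went from a mean of 800.6 to 289.6 CPM, and 4 of the 12 genes were not called. Suz12, named after its values were seen, was not called at 0.19 in wild type. In the humanized libraries it was called higher at 0.71, and its stages overlapped in both genotypes. That members had fewer H3K27me3 peaks at E17.5 was fixed by their choice, so it is not set beside PRC2 RNA. Whether PRC2 RNA or the length of the lists bears on the members was not tested.

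The stage change recurred in the humanized libraries, which share no sample with the wild type ones. There 345 of the 501 were called higher at E17.5 and 79 lower, where 38.2% and 39.5% of the 18781 genes tested were. The filter kept 489 members, 65 were not called, and the median log2 change was 1.29 beside −0.04 over all genes tested. Among the 550 promoters chosen with a −log10 q of at least 5, 442 were called higher and 35 lower. In both genotypes 315 members were called higher and 44 lower, and 0 went in opposite directions. The same counts over all genes are not given here, so this accord cannot be read as particular to the members. Fbxl15, not called in wild type, was called lower in the humanized libraries at −1.11.

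Between the genotypes no member was called. At E11.5 0 of 475 members tested were called by edgeR's quasi-likelihood test, where 0% of 17816 genes were, 35 members had an unadjusted p under 0.05, as did 1058 of all genes, and DESeq2 called 0 members. At E17.5 0 of 488 were called, where 0% of 18763 genes were, and 5 members had an unadjusted p under 0.05, as did 207 of all genes, while DESeq2 called 0. The 5, named after their values were seen, were Abcg1, Aloxe3, Eln, Fbxl15 and Ide. For the interaction of stage and genotype 0 of 491 were called, where 0% of 20234 genes were, and 52 members had an unadjusted p under 0.05, as did 1610 of all genes, while DESeq2 called 0. These comparisons share libraries with the stage comparisons, and a p that misses the threshold does not show that the genotypes were alike.

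In sequence the members were rich in CpG like other bivalent promoters. The median GC content of the 1 kb around the gene start was 58.9% for members, 58.9% for promoters bivalent at both stages and 53.6% over all protein-coding gene starts. The median ratio of observed to expected CpG was 0.666, 0.634 and 0.506 in the same order. Autosomal members had 59.6% and 0.673. Members that gained H3K27ac had 55.8% and 0.507, so their CpG ratio was that of gene starts in general. Of the 501, 51 had the start of another protein-coding gene in their window, and for 43 of them that gene was a member too, so these share peaks.

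Short motifs were counted on both strands from 250 bases before to 50 bases after each gene start in the mm39 genome, a span set after seeing the data because the RefSeq promoter table matched only 75.8% of members. The palindrome CG occurred in 99.2% of members, 99.5% of promoters bivalent at both stages and 94.4% of all gene starts, with medians of 14, 13 and 8 occurrences and of 7 in members that gained H3K27ac. TATAAA, the TATA box, occurred in 7.78% of members, 8.73% of promoters bivalent at both stages and 13.7% of all gene starts. The E-boxes CAGATG and CAGCTG occurred in 10.8 and 15.2% of members, 14 and 15.1% of promoters bivalent at both stages, and 16.5 and 15% of all gene starts. CCGGAA, a core of ETS sites, occurred in 13.4, 10.8 and 14.8%. GCGCATGC, the core of the site of nuclear respiratory factor, occurred in 2, 1.51 and 3.28%, and TTGGCA, part of the nuclear factor I site, in 63 of 501 members, 375 of 3252 promoters bivalent at both stages and 3204 of 21770 gene starts. The TATA box was thus less common in members than over all gene starts, as it was in the promoters bivalent at both stages. CCGGAA and GCGCATGC contain CG. A match is a string of letters and not a binding site.

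The 250 bases before the gene start are shown for the members with the largest RNA rise, Plppr4 at chr3:117154526-117154775 on the minus strand, the highest gained H3K27ac, Ctxn2 at chr2:124977311-124977560 on the plus strand, and the strongest H3K27me3 peak lost from every list, Bcr at chr10:74896150-74896399 on the plus strand. All are in mm39, read 5′ to 3′ on the gene's strand, lie upstream of the first exon and carry each CG in capitals. The Ctxn2 stretch overlaps the noncoding gene Gm14004 on the other strand.
Plppr4: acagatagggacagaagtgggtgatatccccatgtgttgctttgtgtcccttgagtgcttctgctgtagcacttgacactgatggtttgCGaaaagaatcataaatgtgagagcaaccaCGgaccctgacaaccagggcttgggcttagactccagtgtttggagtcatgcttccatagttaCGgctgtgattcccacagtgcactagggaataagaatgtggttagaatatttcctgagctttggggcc
Ctxn2: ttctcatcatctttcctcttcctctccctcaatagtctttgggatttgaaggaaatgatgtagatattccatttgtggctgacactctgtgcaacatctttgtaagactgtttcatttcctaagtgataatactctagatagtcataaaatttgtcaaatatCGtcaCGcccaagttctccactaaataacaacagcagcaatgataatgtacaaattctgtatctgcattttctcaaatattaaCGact
Bcr: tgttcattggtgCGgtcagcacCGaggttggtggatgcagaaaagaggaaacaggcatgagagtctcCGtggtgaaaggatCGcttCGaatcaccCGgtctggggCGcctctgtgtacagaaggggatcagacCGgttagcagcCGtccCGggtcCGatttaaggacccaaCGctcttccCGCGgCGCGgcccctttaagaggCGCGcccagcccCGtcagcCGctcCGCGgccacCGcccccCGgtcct
The Bcr promoter held 24 CG at 64% GC, whereas Plppr4 held 3 at 48% and Ctxn2 3 at 35.2%. The CpG ratio of the 1 kb around these gene starts was 0.925 for Bcr, 0.213 for Plppr4 and 0.442 for Ctxn2. Among these 3, the promoter whose gene was not called in RNA had many CG, and the 2 with the largest RNA rises had few. Each was printed as the first of a set picked by extreme values, so this does not extend to the members. RNA change by CG content was not tested. None of the 6 longer motifs occurred in these 3 stretches of 250 bases. Their gene identifiers are ENSMUSG00000009681.12 for Bcr, ENSMUSG00000044667.14 for Plppr4 and ENSMUSG00000074872.5 for Ctxn2.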

How the data were processed

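Per the labels, 76 mouse samples were given, of which 16 RNA libraries and 36 peak lists were used and 24 input samples were not. The gene counts deposited by the authors came from STAR 2.7.9a on mm39, and their unstranded column was used although most reads fell on 1 strand. Reads assigned to no gene, 48.1 to 58.4% per library, were left out. The authors called peaks per sample with MACS2 2.2.7.1 after alignment with Bowtie2 2.4.2 and removal of duplicates by Sambamba, by the study's methods and the submitters' processing notes, which also name deepTools 3.5.1; the methods name narrow peak calls for H3K27ac, H3K4me3 and CTCF, and the settings for H3K27me3 are not given in the sources used here. The deposited lists give each peak's fold enrichment over input, a ratio, and the −log10 of its p and q as the authors' caller wrote them.

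Gene starts were the 5′ ends of protein-coding genes in GENCODE mouse release 39, whose gene IDs matched 56236 of 56923 in the counts (98.8%). A peak counted when at least 1 bp lay within 2 kb, and the highest fold enrichment there is given. Humanized loss and gain leave out chromosome 13, and counts per humanized list keep it. Counts were tested with edgeR 4.0.16 (quasi-likelihood, filterByExpr, TMM, Benjamini-Hochberg adjustment over all genes tested, limma 3.58.1, R 4.3.3) per contrast of 8 libraries, or 16 for the interaction, and called at an adjusted p under 0.05. CPM use TMM library sizes, and CPM per kb divide by merged exon length. DESeq2 1.42.0 was an alternative, as were other windows, thresholds, list lengths, starts, filters, scalings, strands, left-out replicates and a replicate block. Peaks and sequences were handled in Python 3.11.15 (pandas 2.3.3, numpy 2.4.6, scipy 1.17.1), and the tests were tried on simulated data. For the wild type stage contrast, 1.49% of simulated 1.5-fold changes were called, 22.4% of 2-fold and 87.9% of 4-fold changes. The simulation changed 67, 67 and 66 of 18583 genes by these folds, whereas 5393 and 4963 were called higher and lower in the data. With so few changed genes the adjustment is stricter, so these shares are not those of the real contrast. A gene that was not called may still have changed. The p-values measure the spread between pooled litters.

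Named members were the 10 largest rises and 6 largest falls among called members whose stages did not overlap, the 6 gained promoters with the highest E17.5 H3K27ac, the 6 with no H3K27me3 in any E17.5 list and the strongest at E11.5, 3 just inside and 3 just outside the threshold, up to 4 members by RNA level per length in each family or list with at least 3 members, and up to 6 called Polycomb or trithorax genes. Members with fewer than 10 reads are counted only, and some genes that the rule picks are not reported here. The members, families, marker lists and Polycomb and trithorax lists were chosen with earlier results of these data known.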

Additional observations from a re-analysis of the deposited data

Results flagged for a closer look

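In 39 of 224 groups of 4 libraries examined, the highest or lowest library lay far from the other 3, where chance would give about 11.2, and in 29 of the 39 that library was wild type E17.5 RNA replicate 1. Among members it was the highest E17.5 library, in CPM, for Faim2 (92.8), Pak6 (219), Rxra (32.85), Gcat (1.585), Pcdhgc4 (119.9), Zdhhc14 (40.8), Lix1l (147.7), Cbarp (181.4), Pnma8b (1015), Hcn3 (71.65), Lrrc8d (89.5), Gabbr1 (1375), Syn1 (502.8), Efna2 (61.3), Plxnb1 (220), Cadm4 (346.7), Igfbp4 (140.9), Spock2 (1126), Sdc3 (1401), Mmp15 (104.9), Slc1a4 (250.6) and Gnao1 (1354). Outside the members it was the highest for Dctn1 (351.3), Cbx2 (25.85), Epop (4.755) and Phc2 (113.9), and for the summed lists of microglia (133.2), meninges and mesenchyme (884.4) and telencephalon and hindbrain (96.5). It was high both for genes that rose and for genes that fell. For other genes it was the lowest E17.5 library without being flagged, among them the members Slc4a10, Il1rapl1, Negr1 and Kcnd2, and Ezh2 outside the members.

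At wild type E11.5, replicate 1 was high for Pak6 (5.52), Spock2 (103.8) and Gnao1 (263.6), replicate 2 was low for Plppr4 (0.105) and Gucy1b1 (8.04), replicate 3 was low for Hcn3 (12.3) and replicate 4 was low for Ctxn2 (0.0412, 1 read as in the other 3, in a larger library). In the humanized line, E11.5 replicate 4 was high for the summed astrocyte list (610.6) and low for that of microglia (67.7), and E17.5 replicate 3 was high for that of the pituitary (5.39).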

How the results depend on the processing

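The number of members was 810 with equally long lists and 267 with H3K27me3 in 0 of 3 lists, and ranged from 289 to 821 with 1 list left out, where leaving out an E17.5 H3K27me3 list also made the condition stricter, to a peak in 0 of the 2 lists left, so that 2 choices changed together. With a peak allowed in 1 of those 2, chosen after seeing the data, it was 582 to 675, and gained H3K27ac 88 to 103. Otherwise gained H3K27ac ranged from 31 to 104 with 1 list left out, and it was 152 with equally long lists and 228 at a −log10 q of at least 5. Lost H3K27ac was 2 with equally long lists and 0 to 1 with 1 list left out. Loss of H3K27me3 in the humanized lists was 616 with equally long lists and 327 to 400 with 1 list left out, where the condition became stricter in the same way at E17.5. Larger or smaller sets of promoters account for part of these counts by construction, and the cause of the rest was not tested.

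In wild type RNA, members called higher were 535 with equally long lists and 170 with 0 of 3 lists, and 304 to 348 with 1 library left out. Members called lower were 17 at a −log10 q of at least 5, 27 with 0 of 3 lists, and 36 to 71 with 1 library left out. The median log2 change was 1.12 with windows of 5 kb, 2.14 at a −log10 q of at least 5, 1.16 with 0 of 3 lists, and 1.18 to 1.34 with 1 library left out. Over all genes, 4935 to 6968 were called higher and 4152 to 7026 lower with 1 library left out. In the humanized libraries, members called higher were 562 with equally long lists, 181 with 0 of 3 lists and 334 to 345 with 1 library left out, and members called lower were 120 with equally long lists, 35 at a −log10 q of at least 5, 48 with 0 of 3 lists and 69 to 80 with 1 library left out. In 500 bp around the gene start, members had 61% GC and a CpG ratio of 0.6755. Without chromosome X, chosen after seeing the data, 435 members were left, of which 60 gained H3K27ac, 378 lost H3K27me3 in the humanized lists, 291 rose and 34 fell.

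With the replicate block, 313 wild type members were called higher and 43 lower, with a median of 1.27, and 348 and 77 in the humanized libraries, and 0 between genotypes or for the interaction. Deviations of libraries with the same number correlated at 0.464, 0.483, 0.0498 and 0.155 between the genotypes at E17.5, at 0.0391, 0.109, 0.0316 and 0.0336 at E11.5, and at −0.445 to 0.405 between stages. No set of 4 pairs lay above 0.1 throughout, so the numbers were not taken as pairs, although some E17.5 libraries deviated together. Of 8 libraries, 4 correlated best with their own number between the genotypes at E17.5 and 0 at E11.5, 1 between the wild type stages and 2 between the humanized stages, 5 for humanized E11.5 against wild type E17.5, and 1 for wild type E11.5 against humanized E17.5. DESeq2 called 338 members higher and 44 lower in wild type.

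Of 1022 checks of 73 named genes, 64 of them called, 987 kept direction and side of the threshold, 18 lost a call (Rasip1, Klf12, Efna2, Cadm4) and 7 gained one (Lix1l, Npr2, Mmp15). In 10 the sign turned, for genes that were not called: Bcr at −0.064, Fbxl15 at −0.19, Dctn1 at −0.12, Lrrc8d at −0.13 and Fzd3 at 0.20 without wild type E17.5 replicate 1, Lrrc8d at −0.02 and Fzd3 at 0.24 without E11.5 replicate 3, Lrrc8d at −0.02 without E11.5 replicate 4, and Fzd3 at 0.0068 with DESeq2 and 0.027 with its size factors. Leaving out other libraries gave at most 0.42 for Bcr, 0.54 for Fbxl15, 0.47 for Dctn1 and 0.10 for Lrrc8d. The cause was not tested. Peak lists give no depth, so a weak peak and a missing one differ only by the caller's threshold.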
